A study of Mus musculus with 12 samples.

Results

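The respiratory chain genes described here are the nuclear genes whose symbols name subunits of NADH dehydrogenase (Nduf), succinate dehydrogenase (Sdh), the cytochrome bc1 complex (Uqcr), cytochrome c oxidase (Cox) and ATP synthase (Atp5). They were chosen by a pattern of gene symbols, with earlier results of these data known. Of 16475 probe sets tested, 72 were members, each with a symbol of its own. By complex these were 32 members of complex I, 4 of complex II, 6 of complex III, 18 of complex IV and 12 of complex V. Ndufa4, now placed with cytochrome c oxidase, and its relative Ndufa4l2 were counted with complex IV. RNA was profiled on 12 Affymetrix Mm430_2.0 arrays in 4 groups of 3. The inducible cells were 3T3-ind-IER2 #11, 1 clone of NIH 3T3 mouse fibroblasts transfected with the pNEBR-R1 receptor plasmid and with mouse Ier2 behind the RheoSwitch promoter, and the parental cells were NIH 3T3. Cells of each line received the ligand RSL-1 (RSL) at 200 nM or the matching volume of DMSO and were harvested after 24 h. The labels give 1 medium, with G418 and hygromycin, for all groups and do not say whether the parental cells carry a plasmid, so that transfection, cloning and the Ier2 plasmid cannot be told apart in a comparison of the 2 lines.

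Complexes I to IV pass electrons from NADH and succinate to oxygen and, except for complex II, pump protons across the inner mitochondrial membrane, and complex V uses the gradient to make ATP. Most subunits are encoded in the nucleus, and their messages are abundant in nearly all cells. A few subunits of complex IV exist as isoforms that are typical of heart and skeletal muscle, testis or lung, or that respond to hypoxia. The NRF1, ETS-family and YY1 factors are known to bind the promoters of many of these genes.

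Ier2, the gene behind the switch, did not follow the labels. In the inducible cells it read 9.07, 9.04 and 8.96 on the log2 scale on the DMSO arrays and 8.50, 8.48 and 8.66 on the arrays labelled RSL, a difference of -0.47 on the log2 scale (adjusted p = 4.64e-05 from limma). The groups did not overlap, and the direction was opposite to induction. Whether the probe set reads the Ier2 plasmid and whether the labels of these 6 arrays are exchanged was not tested. The groups are named below by their labels, and the sign of each RSL value in the inducible cells rests on them. So do the difference of the RSL effects and which inducible arrays enter each comparison of the lines. In the parental cells it read 8.60, 8.61 and 8.53 under DMSO and 8.82, 8.74 and 8.67 under RSL (adjusted p = 0.366 from limma). Under DMSO it was 0.45 higher on the log2 scale in the inducible than in the parental cells (adjusted p = 3.24e-06 from limma). Array medians lay between 7.03 and 7.06. Arrays of 1 group correlated at 0.9981 to 0.9992 and arrays of different lines at 0.9913 to 0.9932, and no pair was identical. Of 10 fibroblast markers, 7 were above the third quartile of every array, and none of the markers of macrophages (7), epithelium (6), endothelium (5), muscle (7) or fat cells (4) was. The difference between the 3' and 5' probe sets of actin, a sign of RNA integrity, spanned 0.40 to 0.55 on the log2 scale over the 12 arrays and overlapped between the groups.

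Most members were read at high levels. Of the 72, 62 lay above the third quartile of probe sets on every array and 60 in the top 10% on every array. Atp5g1, a gene for the c-ring of ATP synthase, and Cox7a1, the muscle isoform of a cytochrome oxidase subunit, lay below the first quartile on all 12 arrays. Atp5g1 read between 5.72 and 5.95 on the log2 scale, and its relative Atp5g3, which encodes the same mature c subunit, between 13.14 and 13.27. These are different probe sets, so their levels were not set against each other.

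No member of the respiratory chain passed the test between RSL and DMSO in either line. In the inducible cells 0 of 72 passed an adjusted p under 0.05 in limma in either direction, where 1.32% of all probe sets were called higher and 1.21% lower. At an unadjusted p under 0.05, 1 member was higher and 1 lower (all probe sets 6.29% and 6.04%). The log2 fold changes ran from -0.09 to 0.13 with a median of -5.03e-05, against 0.0027 over all probe sets, and 36 members lay above 0 and 36 below. The 95% confidence interval of 69 members stayed within 0.2 of 0 on the log2 scale, and that of all 72 within 0.3. Over all 16475 probe sets these counts were 15220 and 16284, so narrow intervals were not particular to the members. The 3 arrays of Ndufa11, a membrane subunit of complex I, read 10.31, 10.31 and 10.29 under DMSO and 10.44, 10.40 and 10.45 under RSL, without overlap. Its log2 fold change of 0.13 (standard error 0.04) had the smallest p of the members and missed the threshold, with an adjusted p = 0.0927 in limma. It passed with array weights (adjusted p = 0.0379) and after a repeated quantile normalization (adjusted p = 0.0393). Ndufb3, another small membrane subunit of complex I, read 10.27, 10.25 and 10.22 under DMSO and 10.13, 10.13 and 10.20 under RSL, and was the member furthest below 0, at -0.09 (standard error 0.04, adjusted p = 0.292 in limma).

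The complexes lay close together under RSL in these cells. The median log2 fold change was 0.0039 for complex I, -0.04 for complex II, -0.02 for complex III, 0.0086 for complex IV and 0.0029 for complex V. The catalytic subunits stayed close to 0. Ndufv1, the NADH-binding flavoprotein of complex I, was at 0.04, and Sdha, the flavoprotein of complex II, also at 0.04. Atp5a1 and Atp5b, the alpha and beta subunits of the ATP synthase head, were at -0.0052 and -0.0042, each with a standard error of 0.03. Cox7b2, a testis isoform of complex IV, was at -0.05 (standard error 0.04).

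**Figure D1:**
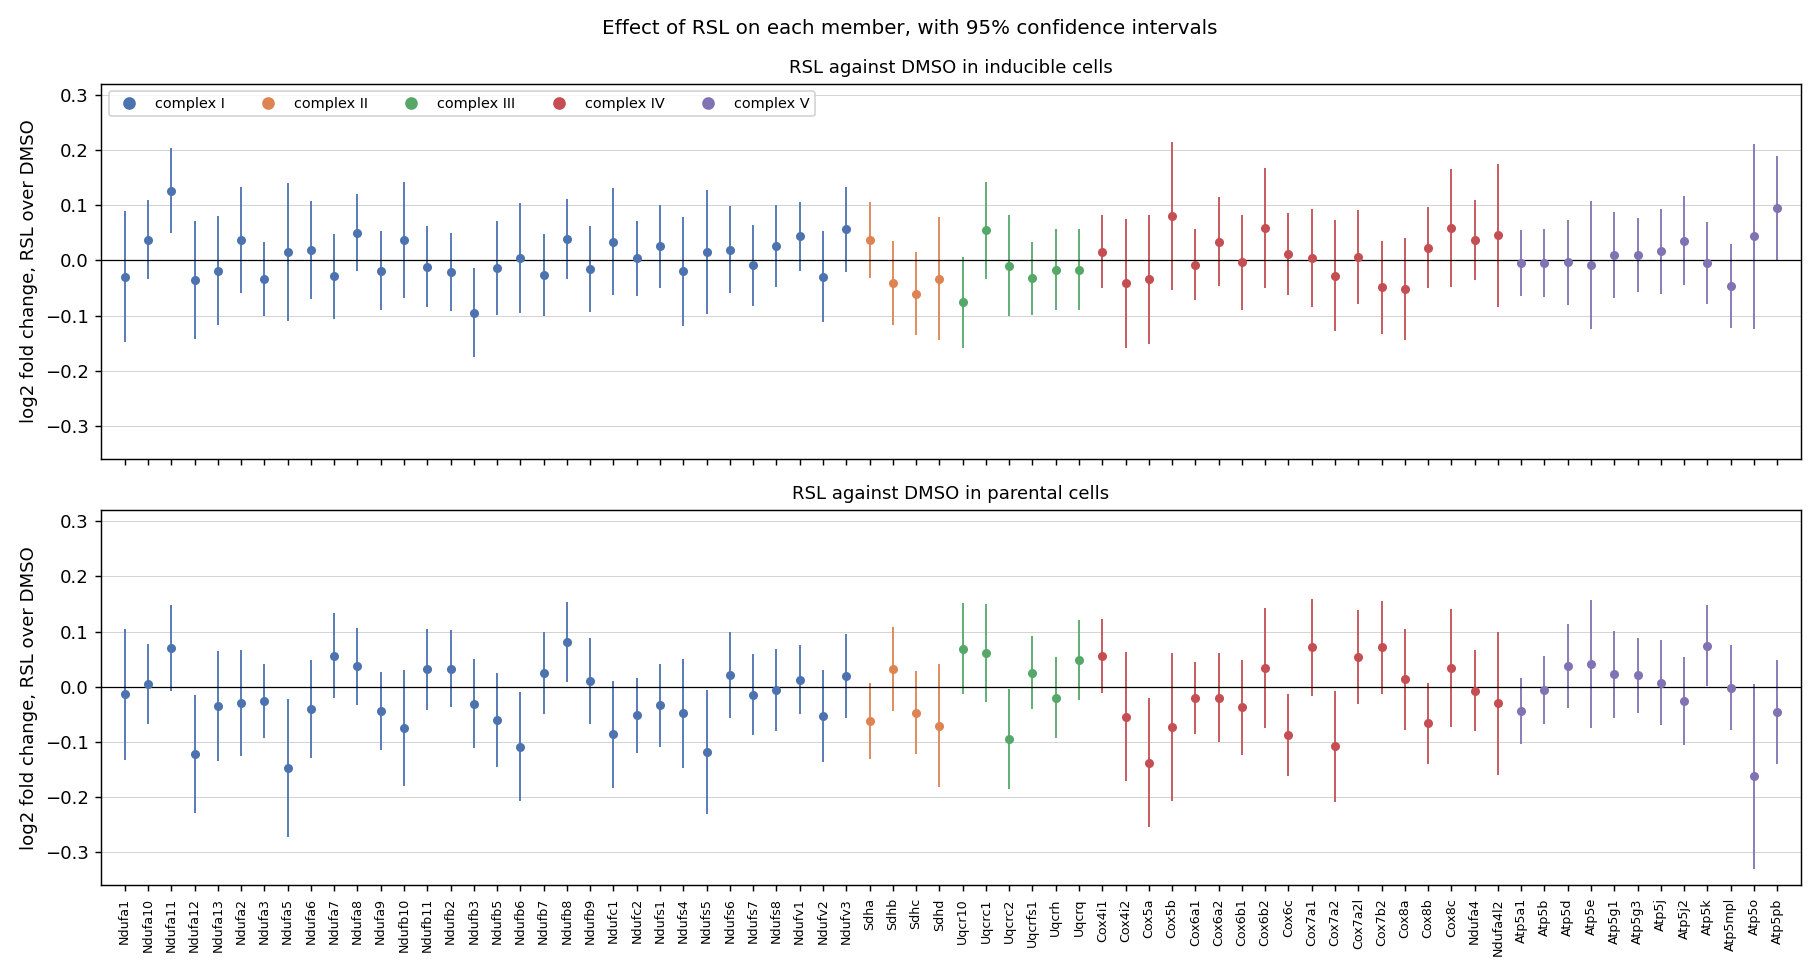
Log2 fold change of RSL over DMSO (vertical axis) for each of the 72 members, ordered and coloured by complex, in inducible cells (top) and parental cells (bottom); points are limma estimates and lines their 95% confidence intervals. The estimates run from -0.09 to 0.13 in the inducible cells and from -0.16 to 0.08 in the parental cells, and none passed an adjusted p under 0.05.

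In the parental cells 0 of 72 members passed in limma as well, where 0.0243% of all probe sets were called higher and 0.00607% lower. At an unadjusted p under 0.05, 2 members were higher and 8 lower, against 4.81% and 4.9% of all probe sets. The median was -0.02, and it read 0.0051 after a repeated quantile normalization. The lowest estimate was that of Atp5o, the subunit that joins the head of ATP synthase to its outer stalk, at -0.16 (standard error 0.08, adjusted p = 0.525 in limma). The highest was that of Ndufb8, a membrane subunit of complex I, at 0.08 (standard error 0.03, adjusted p = 0.458 in limma). The confidence intervals of 64 members stayed within 0.2 of 0 and those of 71 within 0.3, beside 15234 and 16333 of all 16475 probe sets.

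The RSL effect of the 2 lines was compared in the same model. None of the 72 members differed in it at an adjusted p under 0.05 in limma (all probe sets 0.358% higher and 0.303% lower in the inducible cells). At an unadjusted p under 0.05, 2 were higher and 2 lower, with 4.39% and 4.67% of all probe sets. The smallest p belonged to Uqcr10, a small subunit of complex III, at -0.15 (standard error 0.06, adjusted p = 0.381 in limma). The 95% confidence interval of this difference stayed within 0.3 of 0 for 69 members, beside 15654 of all 16475 probe sets.

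The cell lines themselves differed. Under DMSO, 26 of the 72 members were lower and 5 higher in the inducible than in the parental cells at an adjusted p under 0.05 in limma, and 41 did not pass. Of all probe sets, 14.5% were lower and 15.2% higher. The members' median log2 fold change was -0.07, against -0.0067 over all probe sets, and 55 of 72 were below 0. Complex I carried 15 of the falls and 1 rise, complex II 1 fall, complex III 1 fall, complex IV 4 falls and 2 rises, and complex V 5 falls and 2 rises. With the exception of Cox7b2, differences were small, between -0.39 and 0.24 on the log2 scale. In bulk RNA a lower share of cells that express a gene and less of its RNA per cell cannot be told apart.

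**Figure D2:**
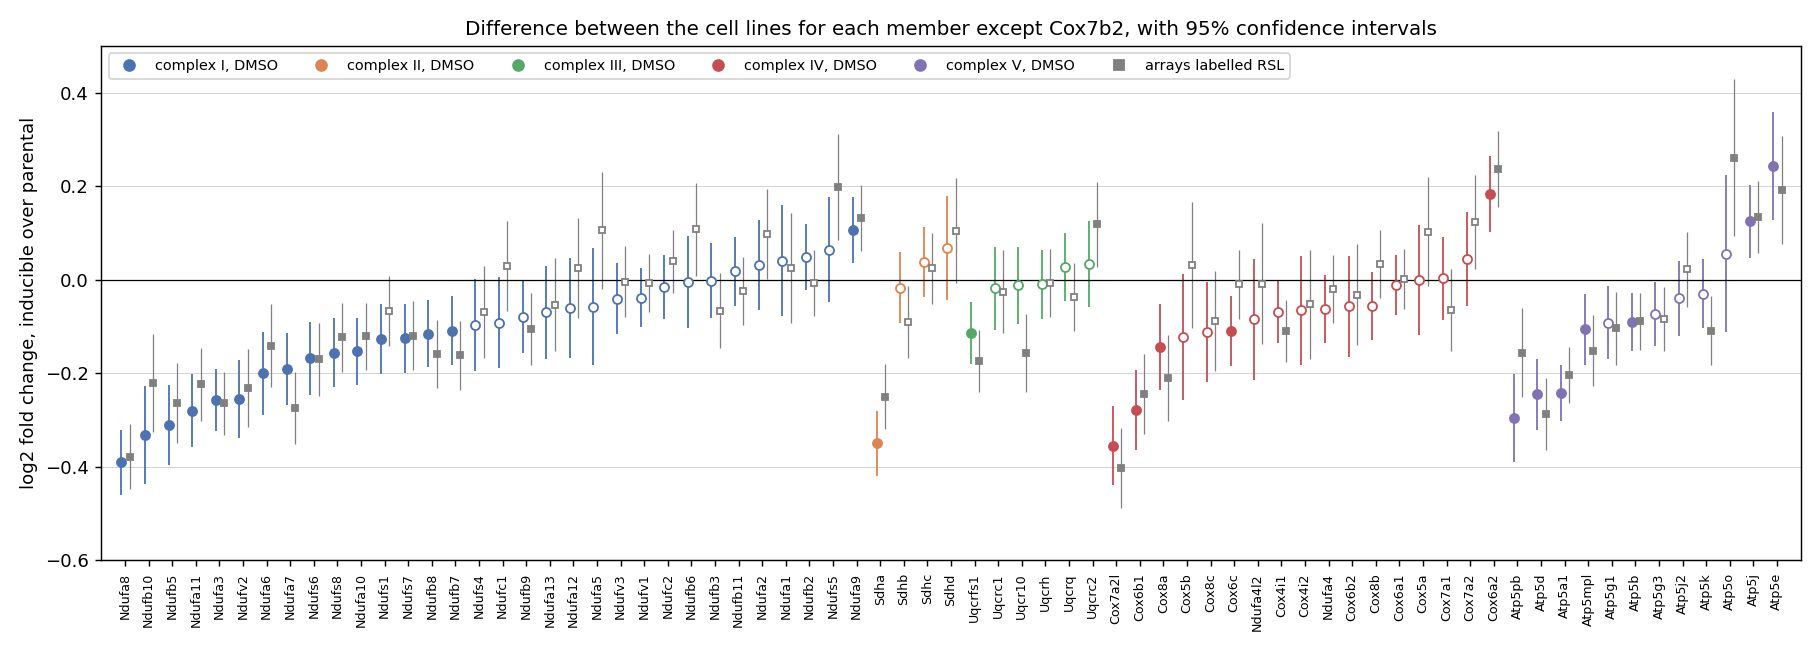
Log2 fold change of inducible over parental cells (vertical axis) for each member except Cox7b2, which lies at 2.28 and is plotted by array elsewhere; circles are the arrays under DMSO, coloured by complex, grey squares the arrays labelled RSL, lines 95% confidence intervals, and filled symbols passed an adjusted p under 0.05 in limma. Filled circles lie below 0 for 26 members, 15 of them in complex I, and above 0 for 4.

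The lower members of complex I included 4 of its 5 measured core subunits and 11 of 27 supernumerary ones. Ndufa8, a supernumerary subunit on the intermembrane face, read 10.89, 10.87 and 10.94 in the inducible cells and 11.29, 11.28 and 11.30 in the parental cells under DMSO. The 2 lines were well apart, and the difference of -0.39 on the log2 scale (standard error 0.03, adjusted p = 1.26e-07 in limma) put the inducible level at 0.763 of the parental one. Ndufb10, a subunit of the membrane arm, read 10.89, 10.82 and 10.82 against 11.07, 11.25 and 11.20. It fell by 0.33 (standard error 0.05, adjusted p = 6.58e-05 in limma). Ndufb5, also of the membrane arm, was at -0.31, Ndufa11 at -0.28 and Ndufa3 at -0.26.

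Among the core subunits of complex I, which carry the flavin and the iron-sulfur clusters, Ndufv2 was furthest below 0. Its arrays read 10.94, 10.87 and 10.87 in the inducible and 11.09, 11.18 and 11.18 in the parental cells, a difference of -0.25 on the log2 scale (standard error 0.04, adjusted p = 8.86e-05 in limma). Ndufs8 was at -0.16, Ndufs1 and Ndufs7 both at -0.13, and all 3 passed. Without inducible DMSO replicate 3 the adjusted p of Ndufs1 was 0.0541, and without parental DMSO replicate 2 that of Ndufs7 was 0.0638. Ndufv1, at -0.04 (adjusted p = 0.404 in limma), did not. Ndufa9, a subunit near the quinone site, was the 1 member of complex I that was higher. It read 10.89, 10.91 and 10.97 against 10.77, 10.86 and 10.82, a difference of 0.11 on the log2 scale (adjusted p = 0.0217 in limma), and leaving out inducible DMSO replicate 3 or parental DMSO replicate 1 or 3 ended this call (adjusted p up to 0.101).

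In complex II the fall was that of Sdha, which oxidizes succinate at its flavin. It read 9.35, 9.34 and 9.36 in the inducible and 9.70, 9.73 and 9.65 in the parental cells. The groups did not overlap, and the difference was -0.35 on the log2 scale (standard error 0.03, adjusted p = 4.31e-07 in limma). Its partners did not pass. Sdhb, the iron-sulfur subunit, was at -0.02 (95% confidence interval -0.09 to 0.06), Sdhc, a membrane anchor, at 0.04 (-0.04 to 0.11) and Sdhd, the other anchor, at 0.07 (-0.04 to 0.18).

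In complex III the fall was that of Uqcrfs1, the Rieske iron-sulfur protein. It read 11.27, 11.22 and 11.21 against 11.34, 11.34 and 11.36 in the parental cells, without overlap, and was at -0.11 (standard error 0.03, adjusted p = 0.00965 in limma). The other 5 members lay between -0.02 and 0.03. Uqcrc1, a core protein, was at -0.02 with a 95% confidence interval of -0.11 to 0.07.

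Complex IV held the member with the largest difference of all. Cox7b2 read 8.06, 7.97 and 8.01 in the inducible cells under DMSO and 7.94, 8.02 and 7.92 under RSL. In the parental cells it read 5.79, 5.67 and 5.74 under DMSO and 5.83, 5.80 and 5.78 under RSL, below the first quartile of probe sets on all 6 arrays. The log2 fold change under DMSO was 2.28 (standard error 0.04, adjusted p = 1.85e-16 in limma). The parental arrays are not shown to read above background, so the value is a difference of measured signals and no fold is given for the transcript. Cox6a2, a muscle isoform, was also higher, at 7.32, 7.37 and 7.33 against 7.24, 7.10 and 7.14. It was higher by 0.18 on the log2 scale (standard error 0.04, adjusted p = 0.00133 in limma). The other 6 isoforms, Cox4i2, Cox6b2, Cox7a1, Cox8b, Cox8c and Ndufa4l2, lay between -0.11 and 0.0029 and did not pass. Of the markers of muscle 0 of 7 passed, and their summed log2 level spanned 44.05 to 44.42 in the inducible and 44.00 to 44.88 in the parental arrays under DMSO. On every array 6 of these 7 lay below the median of probe sets and 3 below the first quartile. Low signals limit what they can show.

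Of the 10 other members of complex IV, 4 were lower and none higher. Cox7a2l, which joins complexes III and IV into supercomplexes, read 9.95, 9.93 and 10.03 in the inducible and 10.28, 10.31 and 10.37 in the parental cells. It fell by 0.35 (standard error 0.04, adjusted p = 3.68e-06 in limma). Cox6b1, a subunit on the intermembrane face, read 12.56, 12.54 and 12.52 against 12.76, 12.93 and 12.77 and was at -0.28 (adjusted p = 4.98e-05 in limma). Cox8a and Cox6c were at -0.14 and -0.11. The call of Cox8a was lost without inducible DMSO replicate 1 or 2 or parental DMSO replicate 1 (adjusted p up to 0.0767), and that of Cox6c without inducible or parental DMSO replicate 2 or 3 (up to 0.109). Cox4i1 and Cox5a, nuclear subunits next to the catalytic core, were at -0.07 and -0.0001 and did not pass.

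In complex V both subunits of the catalytic head were lower. Atp5a1 read 11.91, 11.93 and 11.91 in the inducible and 12.16, 12.15 and 12.16 in the parental cells, a difference of -0.24 on the log2 scale (standard error 0.03, adjusted p = 5.22e-06 in limma). Atp5b was at -0.09 (adjusted p = 0.0265 in limma), a call that ended without inducible DMSO replicate 1 or parental DMSO replicate 1 or 3 (adjusted p up to 0.106). Atp5pb, subunit b of the outer stalk, was at -0.30, Atp5d, the delta subunit of the inner stalk, at -0.24 and Atp5mpl, a small proteolipid, at -0.11. Atp5e, the epsilon subunit, was higher instead. It read 11.01, 10.89 and 10.90 against 10.59, 10.71 and 10.79, or 0.24 higher on the log2 scale (standard error 0.05, adjusted p = 0.00241 in limma). Atp5j, coupling factor 6 of the outer stalk, was higher by 0.12. The call of Atp5j ended without inducible DMSO replicate 1 or parental DMSO replicate 3 (adjusted p up to 0.0717), and that of Atp5mpl without any DMSO array but parental replicate 1 (up to 0.155).

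**Figure D3:**
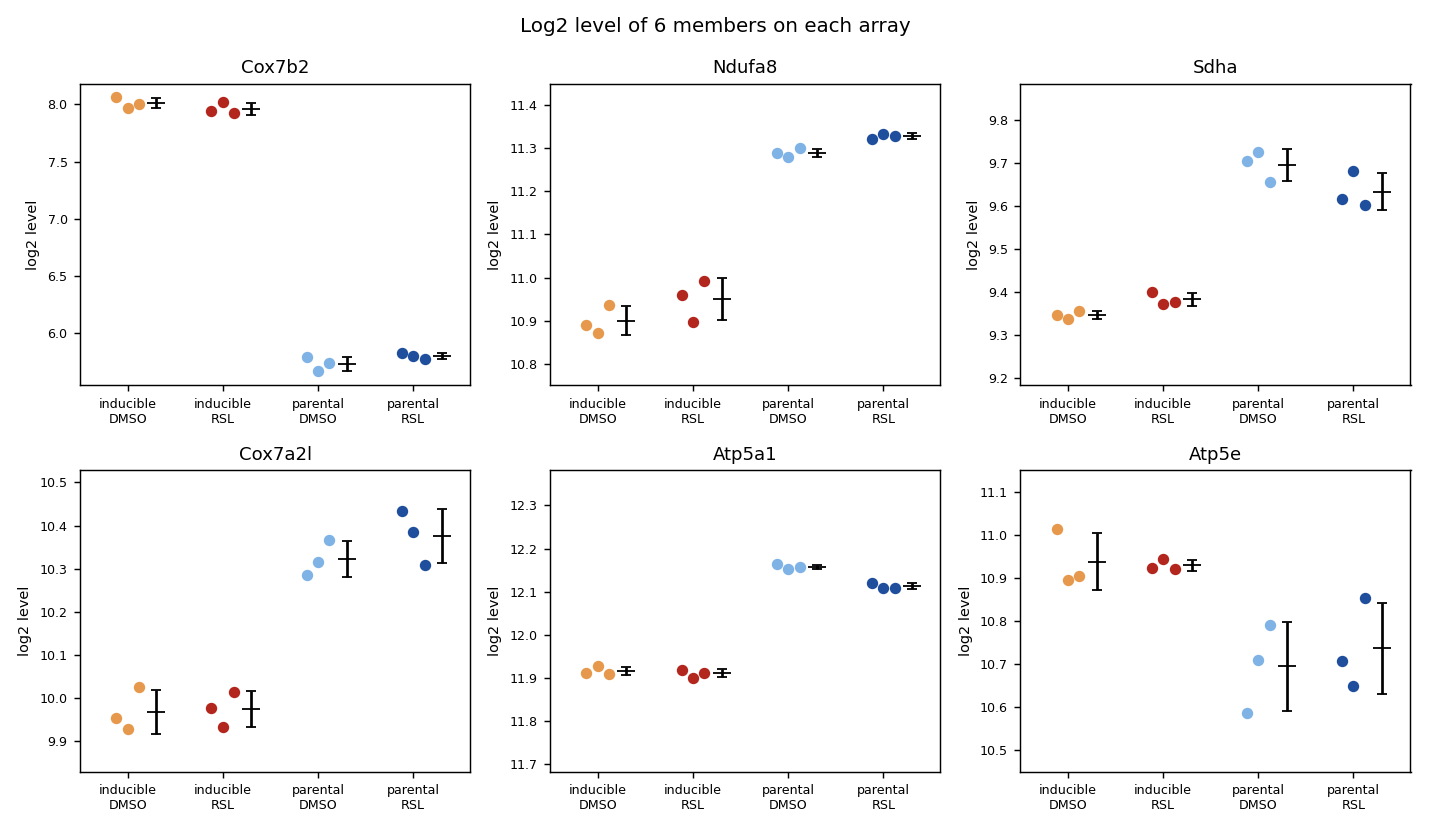
Log2 level of 6 members (vertical axes) on each of the 12 arrays, by group; points are arrays and black bars the mean and SD of 3. Each vertical axis starts above 0 and the axis of Cox7b2 spans more than the others, since Cox7b2 lies between 7.92 and 8.06 in the inducible and between 5.67 and 5.83 in the parental cells.

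The arrays labelled RSL gave a second comparison of the lines on other arrays, in the same model. There, 29 members were lower and 8 higher in the inducible cells in limma, with 16.8% of all probe sets lower and 17.5% higher. The median was -0.06 over the members and -0.02 over all probe sets. Of the 31 members called under DMSO, 29 were called in the same direction, 24 lower and 5 higher. These were 93.5% of the calls under DMSO and 78.4% of those under RSL. Over all probe sets the shares were 79% and 68.5%. Ndufa8 was at -0.38, Sdha at -0.25, Cox7a2l at -0.40, Atp5a1 at -0.20, Cox6a2 at 0.24, Atp5e at 0.19 and Cox7b2 at 2.16. Cox6c and Ndufs1 passed under DMSO alone. Cox4i1, Atp5g1, Atp5k, Ndufb9 and Uqcr10 passed, lower, and Atp5o, Ndufs5 and Uqcrc2, higher, under RSL alone. None of these 10 differed between the treatments in the test of the difference in limma.

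The mean over the members of complexes I, II and IV, the last without its isoforms, was lower on every inducible than on every parental array of the same treatment. For complex I it spanned 10.68 to 10.73 in the inducible and 10.76 to 10.84 in the parental cells under DMSO, and 10.69 to 10.72 and 10.74 to 10.82 under RSL. For complex II it was at most 10.175 against at least 10.197 under DMSO, and 10.157 against 10.165 under RSL. Within complex II, however, 2 of the 4 members were above 0 and 2 below between the lines under each treatment. The median was 0.01 under DMSO and -0.03 under RSL, and Sdha was furthest below, at -0.35 and -0.25. For complex IV without its isoforms it was at most 11.84 against at least 11.88 under DMSO, and 11.84 against 11.86 under RSL. With the isoforms, Cox7b2 among them, the direction was reversed. The mean over all 18 members then spanned 9.60 to 9.62 in the inducible and 9.54 to 9.56 in the parental cells under DMSO. Under RSL it spanned 9.60 to 9.63 and 9.53 to 9.54. Complexes III and V were apart under 1 treatment each. Complex III overlapped under DMSO, at 10.91 to 10.93 against 10.92 to 10.95, and was apart under RSL, at 10.89 to 10.92 against 10.94 to 10.96. Complex V was apart under DMSO, at 11.36 to 11.39 against 11.41 to 11.46, and overlapped under RSL, at 11.36 to 11.40 against 11.39 to 11.46. The top 10% of all probe sets began at 9.66 to 9.69 on the inducible and at 9.63 to 9.69 on the parental arrays under DMSO.

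**Figure D4:**
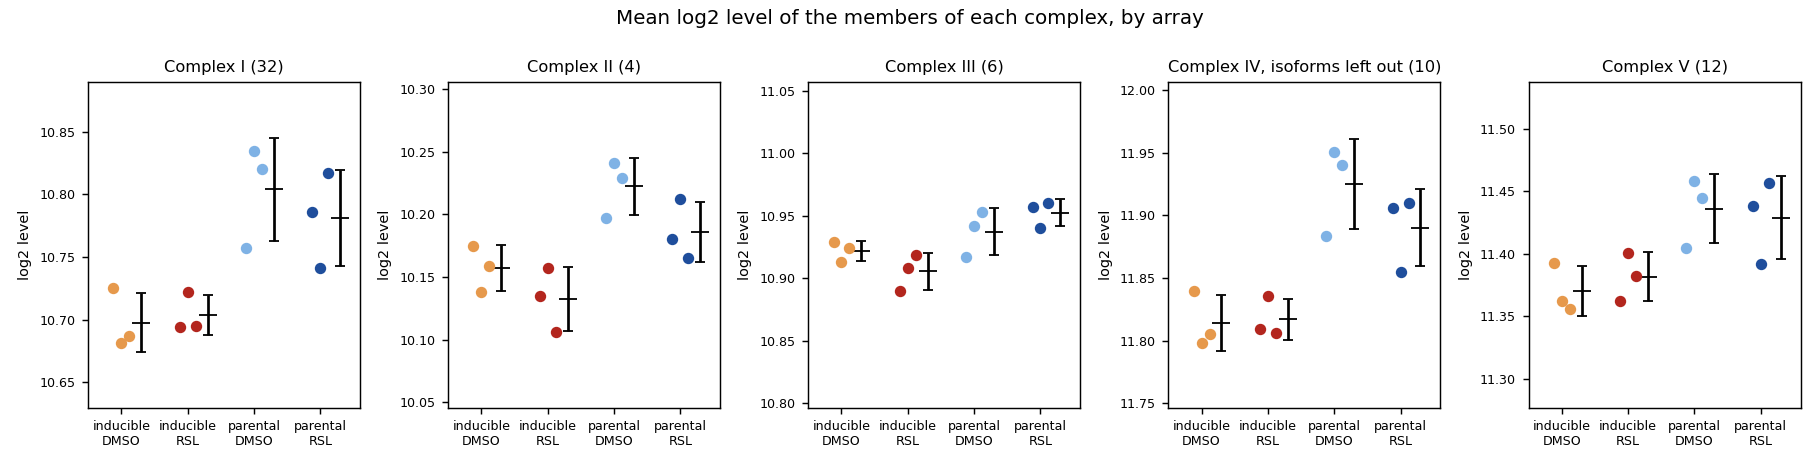
Mean log2 level over the members of each complex (vertical axes, all of the same span and none starting at 0) on each array, with the 8 isoforms of complex IV left out; points are arrays and black bars the mean and SD of 3. The arrays of complex I lie between 10.68 and 10.73 in the inducible and between 10.74 and 10.84 in the parental cells, and those of complexes II and IV are also apart within each treatment. In complex II, 2 of the 4 members are above 0 between the lines. With its isoforms kept, the mean of complex IV is higher in the inducible cells.

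The promoter windows of 58 of the 72 members were in the RefSeq table for GRCm38.p6, as 62 windows of 300 bases, each around a start with most of its bases upstream. The series names no build, and the windows place the genes only. Letters of 3 motifs were searched on both strands: GCATGCGC for NRF1 (reverse GCGCATGC), CCGGAAG for ETS factors (reverse CTTCCGG) and ATGGCGG for YY1 (reverse CCGCCAT). The 2 strands of the NRF1 letters can overlap each other, and matches to different motifs were counted separately. Of the 62 member windows, 41.9% held at least 1 motif, against 14.1% of all 32851 windows. The shares were 11.3% and 2.71% for NRF1, 19.4% and 8.86% for ETS, and 17.7% and 4.05% for YY1. The member windows were also richer in CG pairs, with a median of 19 against 7. Of the windows of members that were lower in the inducible cells 54.2% held a motif (13 of 24), of those of higher members 60% (3 of 5) and of those that did not pass 30.3% (10 of 33). None of the 4 windows of complex IV isoforms held one. The share of windows of complex I with the YY1 letters was 29% and of complex V 16.7% (2 of 12), and in complexes II, III and IV it was 0 of 3, 0 of 4 and 0 of 12.

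Windows are printed for 4 members, the ones furthest apart between the lines in complexes I and IV and 2 others that hold a motif, 1 of them lower and 1 higher. Capitals mark a motif. Ndufa8 is at chr2:36049289-36049588 on the minus strand and holds the NRF1 letters, Ndufb5 at chr3:32736813-32737112 on the plus strand holds the YY1 letters just after the start, and Atp5e at chr2:174464052-174464351 on the minus strand holds the ETS letters. Cox7b2 at chr5:71548156-71548455 on the minus strand holds none of the 3.
Ndufa8: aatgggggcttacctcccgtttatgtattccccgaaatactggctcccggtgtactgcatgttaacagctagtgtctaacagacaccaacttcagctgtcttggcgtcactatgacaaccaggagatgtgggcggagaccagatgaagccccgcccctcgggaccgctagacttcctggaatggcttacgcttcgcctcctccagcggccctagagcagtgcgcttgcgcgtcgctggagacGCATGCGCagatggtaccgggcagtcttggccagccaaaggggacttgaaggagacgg
Ndufb5: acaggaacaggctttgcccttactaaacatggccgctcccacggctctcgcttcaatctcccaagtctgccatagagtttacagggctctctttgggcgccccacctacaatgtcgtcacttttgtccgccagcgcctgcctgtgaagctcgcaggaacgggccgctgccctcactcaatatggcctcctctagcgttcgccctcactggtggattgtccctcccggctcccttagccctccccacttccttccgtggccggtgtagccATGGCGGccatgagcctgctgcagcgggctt
Atp5e: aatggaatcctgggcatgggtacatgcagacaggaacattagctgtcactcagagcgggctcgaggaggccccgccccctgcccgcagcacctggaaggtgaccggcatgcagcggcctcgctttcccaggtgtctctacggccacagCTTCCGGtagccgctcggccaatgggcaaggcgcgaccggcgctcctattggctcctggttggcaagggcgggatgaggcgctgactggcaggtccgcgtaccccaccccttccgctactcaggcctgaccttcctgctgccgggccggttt
Cox7b2: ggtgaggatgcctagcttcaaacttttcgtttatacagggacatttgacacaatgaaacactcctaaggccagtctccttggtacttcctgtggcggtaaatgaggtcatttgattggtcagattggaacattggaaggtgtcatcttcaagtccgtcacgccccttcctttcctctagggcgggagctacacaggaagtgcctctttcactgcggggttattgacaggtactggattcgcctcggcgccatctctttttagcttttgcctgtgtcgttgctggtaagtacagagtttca

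Genes that build the complexes went in both directions. Of 45 measured assembly factors, 8 were lower and 11 higher in the inducible cells under DMSO in limma, beside 14.5% and 15.2% of all probe sets, with a median log2 fold change of 0.01, where the subunits had -0.07. Lrpprc, which stabilizes mitochondrial messages, was at -0.36, Uqcc3, an assembly factor of complex III, at -0.29 and Sdhaf1, which serves the iron-sulfur subunit of complex II, at -0.24. Coa3 and Coa7, assembly factors of complex IV, were at 0.26 and 0.25, and Tmem70, of ATP synthase, at 0.24. In the inducible cells 1 of the 45, Coa7, was higher and none lower in the arrays labelled RSL, a share of 2.22% beside 1.32% of all probe sets. Coa7 read 8.87, 8.88 and 8.96 under DMSO and 9.11, 9.02 and 9.12 under RSL, a difference of 0.18 on the log2 scale (standard error 0.04, adjusted p = 0.0233 in limma). In the parental cells it read 8.59, 8.69 and 8.69 under DMSO and 8.63, 8.69 and 8.62 under RSL, and the difference of the RSL effects was 0.19 (adjusted p = 0.21 in limma). Without inducible DMSO replicate 1 or 2 or inducible RSL replicate 1 or 3 the call of Coa7 ended, with an adjusted p of 0.0909 to 0.12.

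The other lists were counted in the same comparison of the lines, in which 14.5% of all probe sets were lower and 15.2% higher. Of 71 genes of the mitochondrial ribosome, 17 were lower and 18 higher, with a median of 0.03. Of 17 genes of electron carriers and coenzyme Q synthesis, 3 were lower and 5 higher, with Coq10b, a coenzyme Q binding protein, at 0.47. Of 17 genes of pyruvate dehydrogenase and the citric acid cycle, 4 were lower and 4 higher. Of 17 genes of mitochondrial import, 3 were lower and 3 higher, with Tomm40, the pore of the outer membrane, at -0.26. Of 6 genes of ADP, ATP and phosphate transport, 1 was lower and 1 higher. Of 19 regulators of mitochondrial biogenesis, 7 were lower and 3 higher, with Polrmt, the mitochondrial RNA polymerase, at -0.28, Ppargc1a, a coactivator, at -0.27 and Tfam, which packages mitochondrial DNA, at -0.19. Gabpa, an ETS factor, was at 0.16, and Nrf1 and Yy1 did not pass. The median of this list was -0.07. On the arrays labelled RSL, Nrf1 was lower (-0.13, adjusted p = 0.0318 in limma) and Yy1 higher (0.12, adjusted p = 0.0406 in limma) in the inducible cells. Tfam did not pass there. Of 24 genes placed by name with the cytosolic ribosome, 12 were lower and 1 higher, with a median of -0.10. This list also holds the relatives Rpl39l, Rpl3l, Rpl7l1, Rps4l and Rps27l. Rpl39l was the 1 higher gene (0.14), Rpl7l1 was among the lower ones (-0.38), and the other relatives did not pass. Cyc1, a catalytic subunit of complex III outside the name pattern, was at -0.09 under DMSO (adjusted p = 0.0527 in limma). It was called lower on the arrays labelled RSL, at -0.14 (adjusted p = 0.00312 in limma). Beside these differences, 5 fibroblast markers were higher and 3 lower in the inducible cells under DMSO, with Col1a1 at 0.73 and Pdgfrb at -0.67. Of the markers of other cell types, Cd68 of macrophages (0.40), Cdh1 and Krt14 of epithelium (both 0.17) and Fabp4 of fat cells (0.25) were higher, and Csf1r of macrophages (-0.20) was lower. Fabp4 was also higher in the inducible arrays labelled RSL than under DMSO (0.27, adjusted p = 0.00436 in limma). The part of these markers in the results was not tested.

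**Figure D5:**
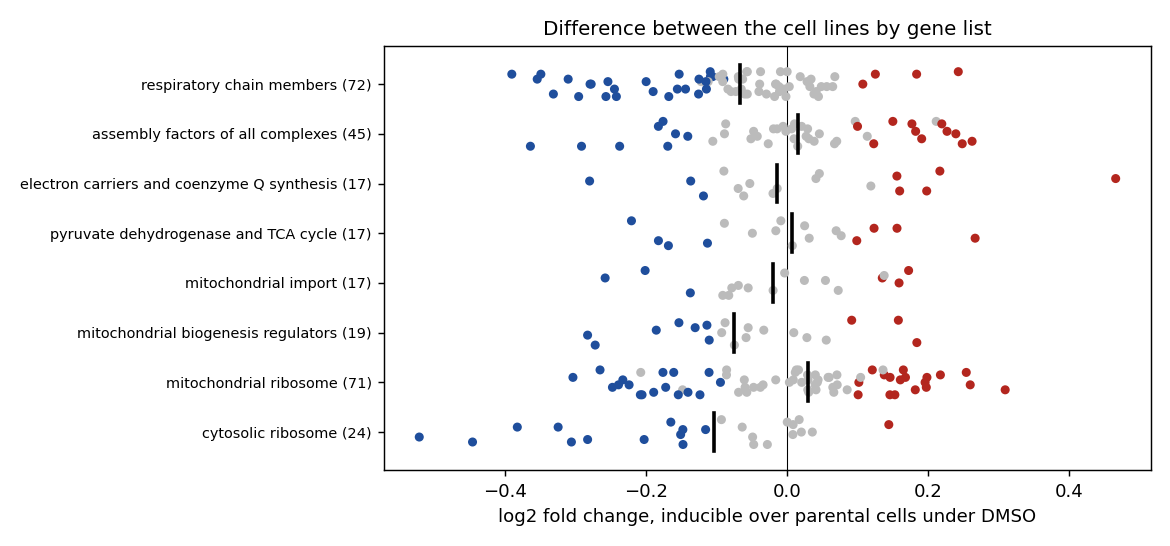
Log2 fold change of inducible over parental cells under DMSO (horizontal axis) for the genes of 8 lists, each point 1 gene, red for higher and blue for lower at an adjusted p under 0.05 in limma and grey otherwise; black lines are medians, and Cox7b2 at 2.28 lies outside the axis. The medians are -0.07 for the respiratory chain members, 0.01 for the assembly factors, 0.03 for the mitochondrial and -0.10 for the cytosolic ribosome.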

How the data were processed

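RNA of 12 samples of NIH 3T3 cells was hybridised to Affymetrix Mm430_2.0 arrays. The authors grouped probes into genes by Entrez identifiers (Custom CDF, version 10), applied RMA background correction and quantile normalization and deposited 1 table of log2 values. That the values are log2 was read from their range. How probes were summarised per gene is not given in the sources. RNA was extracted with Trizol per the labels and with RNAPure peqGOLD per the methods. The table has 0 columns of other samples.

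The 64 hybridization controls were left out, and 16475 probe sets, 15780 with 1 gene symbol, were fitted with 4 group means in limma 3.58.1 (R 4.3.3), with 8 residual degrees of freedom. P-values were adjusted by Benjamini-Hochberg over all of them. All adjusted p-values are limma's. The lines were also compared on the arrays labelled RSL, an alternative chosen after seeing the data. Exact permutation of 3 against 3 arrays cannot go below p = 0.1. Separate cultures are not stated for the biological replicates, and p-values then reflect only how far these arrays spread, which may be technical. Members, lists and motifs were chosen with earlier results of these data known. Genes named were the called members (up to 12 per direction by size, or the 5 with the smallest p where fewer than 5 passed), the smallest p of each complex, catalytic subunits, complex IV isoforms and up to 4 called genes of each list; other members named were chosen after their values were seen. Scripts were tested on simulated data. Leaving out each array, array weights, an intensity trend, a filter on the dimmest 40% of probe sets, the replicate number as a block, other scalings (array medians, a second quantile normalization), a fit of the compared arrays alone and the methods' one-way analysis were tried as alternatives. Precision is limited by 3 arrays per group, and the median standard error of a member's log2 fold change was 0.04.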

Additional observations from a re-analysis of the deposited data

How the results depend on the processing

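The count of members called between the lines under DMSO was 31 and ran from 21 (the methods' one-way analysis after Benjamini-Hochberg) to 41 (array weights), with 29 after a repeated quantile normalization and 25 to 30 when single arrays were left out. Of the 31 calls, 21 held without any 1 array. The median of the members stayed below 0 in every alternative run, from -0.08 to -0.06. For RSL in the inducible cells, array weights and a repeated quantile normalization each called 1 member, Ndufa11, in place of 0. The methods' one-way analysis called 4 (Ndufa11, Ndufv1 and Sdha higher, Ndufb3 lower) at its nominal p and 0 once adjusted. For RSL in the parental cells it called 6 and 0, and the median of -0.02 became 0.0051 under a repeated quantile normalization. Leaving out single arrays called 0 members in each of these comparisons and for the difference of the RSL effects. The cause of these shifts was not tested.

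Replicate numbers did not pair the arrays: same-numbered arrays had correlations of their deviations between -0.27 and 0.21 across the treatments of a line. Those of different-numbered arrays ran from -0.33 to 0.32, and what such arrays share was not tested. With the number as a replicate block, 0 members were called for RSL in inducible cells, 0 in parental cells, 0 for the difference and 31 between the lines.

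Among the members named for the comparison of the lines, signs that turned belonged to ones that did not pass. Other members turned on the arrays labelled RSL as well, and 23 of 72 lay above 0 there, against 17 under DMSO. Ndufa5, for example, averaged 10.32 in the inducible and 10.38 in the parental cells under DMSO, and 10.34 and 10.23 under RSL. Between the lines, Cox5a, at -0.0001, read 1.27e-05 with array medians subtracted, 0.038 after a repeated quantile normalization, -0.027 to 0.034 when single arrays were left out and 0.10 on the arrays labelled RSL. Cox7a1, at 0.0029, read -0.022 with array weights, -0.030 to 0.031 when single arrays were left out and -0.064 on the arrays labelled RSL. When single arrays were left out, Sdhb spanned -0.049 to 0.0079, Uqcrc1 -0.041 to 0.016 and Cox6b2 -0.10 to 0.0037, and on the arrays labelled RSL Cox8b read 0.033. The filter on dim probe sets left out Atp5g1, Cox4i2, Cox6b2, Cox7a1 and Cox8b, which therefore have no value there. Low signals limit what these 5 probe sets can show.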

Other observations

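The genes next to Cox7b2 in the order of the mouse annotation were looked at after its value was seen. Its nearest neighbours Gabra2 and Gabra4, receptor subunits of neurons, were at 0.0050 and -0.0041 on the log2 scale between the lines under DMSO and did not pass. Gabrg1 and Gabrb1, at -0.09 and 0.06, did not pass either. Gabra2 lay below the first quartile of probe sets on 11 of the 12 arrays, and Gabra4, Gabrg1 and Gabrb1 on all 12. Low signals limit what these probe sets can show, and whether these genes differ between the lines was not tested in another way. Further out, Gnpda2, an enzyme of amino sugar metabolism, was at 0.26 (adjusted p = 5.6e-05 in limma), Commd8 at 0.13 (adjusted p = 0.00967 in limma) and Guf1, a mitochondrial translation factor, at -0.25 (adjusted p = 3e-04 in limma).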
